A study of Homo sapiens with 6 samples.

Results

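The 52 genes described here belong to the cell's DNA repair and DNA damage checkpoint machinery. They were chosen by name: every transcript row whose gene ID mapped to one of 52 listed symbols was taken, and its estimated counts were summed per gene. All 52 symbols were found among the 58174 gene IDs of the table, and all 52 were measured at a mean of at least 1 CPM, a count scaled for library size. By known role they comprise 11 homologous recombination genes, 10 Fanconi anaemia genes, 8 checkpoint and break-sensing genes, 4 helicases and end-processing enzymes, 3 mismatch repair genes, 5 nucleotide excision repair genes, 6 base excision and strand-break repair genes and 5 end-joining genes.

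RNA was sequenced from MDA-MB-231, an established human triple-negative breast cancer line. The labels name 3 groups of 2 samples: KO1 and KO2, both given the genotype ARID1A knockout, and NC, given the genotype control. ARID1A encodes a large subunit that helps hold the BAF (SWI/SNF) chromatin remodeller together. The labels give no guide, no edited site, no agent and no time, do not say whether KO1 and KO2 are separate clones, and do not say what NC received. The deposited table holds 1 column per group, so the spread between samples of a group could not be computed, and KO1, KO2 and NC below are the columns labelled so. Intervals are exact 95% intervals that cover counting error only.

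The table held 25801499 estimated counts in KO1, 26144758 in KO2 and 26798753 in NC. Transcripts of the mitochondrial genome took 20.5% of them in KO1, 16.9% in KO2 and 12.8% in NC. The targeted gene, ARID1A, measured 45.7 CPM in KO1 and 83.9 CPM in KO2, against 77.3 CPM in NC. Its level was 1.69-fold lower in KO1 than in NC (interval 1.57 to 1.82) and 1.09-fold higher in KO2 than in NC (interval 1.02 to 1.15). The RNA level in KO2 thus goes against its label, although an edited gene can still be transcribed and the edited site is not known. The 6 markers of the line were all present, summing to 8887 CPM in KO1, 6678 in KO2 and 7662 in NC. Of 14 markers of blood, endothelial and stromal cells, 9 were at 0 in KO1, 6 in KO2 and 8 in NC, and they summed to 4.999, 14.5 and 10.4 CPM in KO1, KO2 and NC. Another 5 markers, which MDA-MB-231 cells should lack or hold at low levels, summed to 48.6 CPM in KO1, 69.3 in KO2 and 82.4 in NC. PGR was at 0 in all 3 columns, ESR1 at 0, 0.4998 and 0 CPM, and CDH1 at 0.304, 1.07 and 0.286 CPM. ERBB2 was at 28.0 CPM in KO1 and 52.4 CPM in KO2, against 75.7 CPM in NC, and EPCAM at 20.3 and 15.4 CPM, against 6.46 CPM. ERBB2 was thus below NC and EPCAM above NC in both knockout columns.

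As background, a broken DNA molecule is sensed by the MRE11-RAD50-NBN complex and the kinase ATM, while the kinase ATR answers to stalled replication forks, and CHEK1 and CHEK2 pass both signals on to the cell cycle. Homologous recombination copies the lost stretch from the sister chromatid with BRCA1, BRCA2 and their partners, end joining seals the ends directly, and the Fanconi anaemia proteins unhook crosslinks between the strands. ARID1A has been linked to this system in other work through ATR and through the processing of DNA ends. Many homologous recombination and Fanconi genes are induced by E2F factors as cells enter S phase, so their RNA also follows how many cells are replicating.

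In KO1, 13 of the 52 genes were lower than in NC by the size rule, which asks for a log2 fold of at least 1 in size (a 2-fold difference, with a prior count of 2), an interval of the fold that excludes equality and a mean of at least 1 CPM. The 13 were BARD1, BRIP1, RAD54L, FANCB, FANCC, FANCD2, FANCG, CHEK2, EXO1, ERCC2, PARP1, UNG and OGG1. Over the 14524 measured genes the share passing as lower was 17.4%. RAD50 was the 1 gene that passed as higher, where 15.4% of all measured genes did. The remaining 38 genes passed in neither direction, so 14 of 52 passed in one or the other, beside 32.8% of all measured genes. With scaling to total counts, which moves the median of all genes to -0.24, the split of members was 0 higher and 19 lower, beside 11.3% and 22.7% of all genes, and with the deposited TPM, which moves it to -0.39, it was 0 higher and 20 lower, beside 9.31% and 26.6%.

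Fewer members passed in KO2. There, 5 genes, RAD51AP1, FANCM, ATM, MRE11 and MSH3, passed as higher than in NC, where 11.0% of all measured genes did. FANCG and CHEK2 passed as lower, where the share of all measured genes was 9.98%. The remaining 45 genes passed in neither direction, so 7 of 52 passed in either, beside 21.0% of all measured genes. FANCG and CHEK2 were therefore the 2 genes lower in both KO1 and KO2, a pattern that 5.65% of all measured genes had. Of the members 0 were higher in both, as 6.22% of all measured genes were. None passed in opposite directions, as 117 of the 14524 measured genes did.

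KO2 and KO1 carry the same genotype label. Their direct comparison gave slightly more members past the rule than KO1 over NC did. Over all measured genes KO1 over NC gave more, 32.8% against 26.1%. In KO2 over KO1, 16 members passed as higher, where the share of all measured genes was 14.9%, and 0 passed as lower, where it was 11.2%. KO1 was the lowest of the 3 columns for 32 of the 52 genes and for 37.7% of all measured genes. The members' median log2 fold was -0.42 in KO1 over NC, 0.18 in KO2 over NC and 0.69 in KO2 over KO1, beside medians of -0.01, -0.00 and 0.04 over all measured genes. In KO1 36 of the 52 members were below NC, beside 7332 of the 14524 measured genes. In KO2 35 of the 52 were above NC, beside 7208 of the 14524. The mitochondrial share of counts was also highest in KO1, and its part in these differences was not tested.

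**Figure D1:**
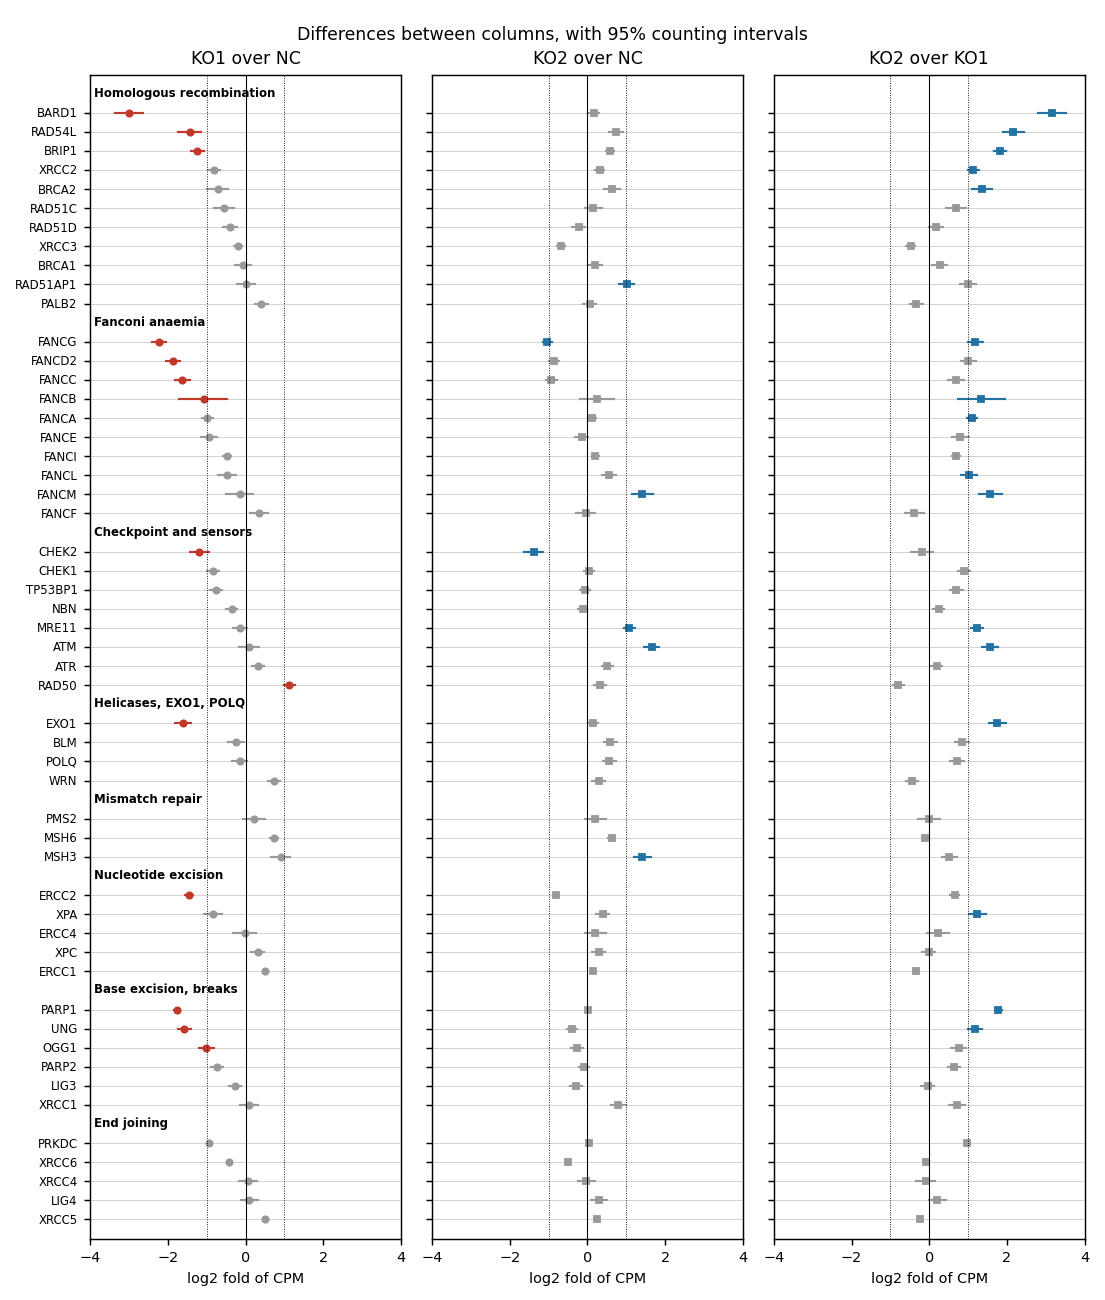
Log2 fold of CPM (prior count 2) of each of the 52 genes, grouped by role, in KO1 over NC, KO2 over NC and KO2 over KO1; bars are exact 95% counting intervals and dotted lines mark a 2-fold difference. Coloured points passed the size rule and grey points did not; BARD1 lies lowest at -2.96 in KO1, while ATM lies highest at 1.64 in KO2.

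Because each group has 1 column, the only test with a residual degree of freedom put KO1 and KO2 together as a group of 2 against the NC column. The edgeR quasi-likelihood F test (two-sided, Benjamini-Hochberg adjustment over 18289 genes) called 0 of the 52 members, beside 0.148% of all genes. At an unadjusted p under 0.05 it gave 1 member, FANCG, beside 7.70% of all genes. FANCG had a log2 fold of -1.51 in the knockout columns over NC and an adjusted p of 0.601 by edgeR. DESeq2 also called 0 members, with 1 at an unadjusted p under 0.05, beside 1.60% and 7.28% of all genes. NC was assumed to vary like the 2 knockout columns, and the test had 1 residual degree of freedom.

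Promoter sequences were examined because E2F factors control many genes of this kind. RefSeq windows of GRCh38.p14, from 250 bases before to 50 bases after a gene's start, were found for 47 of the 52 members and searched on both strands for TTTCCCGC, TTTCGCGC, TTTGCCGC and TTTGGCGC, 8-base forms of the E2F consensus. Windows of 11 of the 47 members, or 23.4%, held a match, against 6.63% of measured genes and 3.99% of all genes with a window. A list of replication and G1 to S genes had a match in 54.1% of 37 genes. Of the 13 members lower in KO1, 4 had a match, or 30.8% (FANCC, FANCD2, EXO1 and UNG), against 7 of the other 34, or 20.6%. The windows shown here are 4, 2 from members lower in KO1 that hold a match (FANCD2 and EXO1), 1 from a member that holds a match and was not lower (MSH6) and 1 from the member lowest in KO1, which holds none (BARD1), with any match in capitals and written 5′ to 3′ along the gene's strand. They are chr3:10026187-10026486 on the plus strand for FANCD2, chr1:241847954-241848253 on the plus strand for EXO1, chr2:47782895-47783194 on the plus strand for MSH6 and chr2:214809634-214809933 on the minus strand for BARD1.
FANCD2: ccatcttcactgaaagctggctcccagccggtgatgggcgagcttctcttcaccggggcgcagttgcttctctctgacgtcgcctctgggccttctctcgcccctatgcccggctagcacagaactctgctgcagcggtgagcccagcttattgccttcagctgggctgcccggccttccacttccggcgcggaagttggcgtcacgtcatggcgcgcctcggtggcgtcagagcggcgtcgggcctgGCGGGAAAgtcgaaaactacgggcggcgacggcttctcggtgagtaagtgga
EXO1: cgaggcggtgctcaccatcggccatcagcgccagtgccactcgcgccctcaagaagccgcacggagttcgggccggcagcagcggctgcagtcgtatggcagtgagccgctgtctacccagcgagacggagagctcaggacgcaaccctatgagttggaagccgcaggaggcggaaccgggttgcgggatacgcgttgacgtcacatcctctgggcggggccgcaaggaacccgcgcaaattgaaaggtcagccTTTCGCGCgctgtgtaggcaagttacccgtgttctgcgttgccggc
MSH6: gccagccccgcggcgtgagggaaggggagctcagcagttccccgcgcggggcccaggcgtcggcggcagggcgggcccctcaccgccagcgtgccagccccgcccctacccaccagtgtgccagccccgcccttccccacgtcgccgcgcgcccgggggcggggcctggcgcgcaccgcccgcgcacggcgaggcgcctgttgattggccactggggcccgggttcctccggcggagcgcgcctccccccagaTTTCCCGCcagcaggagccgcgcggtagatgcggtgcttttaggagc
BARD1: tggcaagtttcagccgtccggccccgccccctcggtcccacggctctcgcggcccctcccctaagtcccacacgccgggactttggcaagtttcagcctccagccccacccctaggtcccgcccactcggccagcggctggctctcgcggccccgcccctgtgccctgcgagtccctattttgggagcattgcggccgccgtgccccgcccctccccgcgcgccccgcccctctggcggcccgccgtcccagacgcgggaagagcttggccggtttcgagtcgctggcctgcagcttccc
In MSH3 the 2 matches, on opposite strands, overlap. The FANCD2 match is on the opposite strand and begins 2 bases before the transcript's first base, that of EXO1 begins 4 bases after it and that of MSH6 3 bases after it. A match describes letters only and is not a measured binding site, and MSH6 held one while its level was above NC in both knockout columns.

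Most homologous recombination genes were at their lowest in KO1. Of the 11, 3 passed as lower and 0 as higher in KO1, 1 passed as higher in KO2, and 5 passed as higher in KO2 than in KO1. Their median log2 fold was -0.54 in KO1 over NC, 0.20 in KO2 over NC and 0.99 in KO2 over KO1, and KO1 was the lowest column for 8 of them. BARD1, the partner that stabilises BRCA1 in its ubiquitin ligase, was at 3.30 CPM in KO1 and 29.3 CPM in KO2, against 26.2 CPM in NC. That made BARD1 7.93-fold lower in KO1 than in NC (interval 6.26 to 10.2), the lowest fold of any member, and 8.87-fold higher in KO2 than in KO1 (interval 7.01 to 11.4). The gene lies on the minus strand of hg38 chromosome 2, from 214725646 to 214809711. KO2 and NC were close together for BARD1, and KO1 stood alone.

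RAD54L, a motor protein that acts in the strand invasion step, was at 5.56 CPM in KO1 and 25.0 CPM in KO2, against 15.1 CPM in NC. It was 2.72-fold lower in KO1 than in NC (interval 2.22 to 3.34) and 4.48-fold higher in KO2 than in KO1 (interval 3.71 to 5.46). BRIP1, the BRCA1-associated helicase, was at 17.6 CPM in KO1 and 62.2 CPM in KO2, against 41.6 CPM in NC. Both genes had NC between the columns labelled as knockouts. For BRIP1 the level was 2.36-fold lower in KO1 than in NC (interval 2.11 to 2.65), and 3.53-fold higher in KO2 than in KO1 (interval 3.17 to 3.95).

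BRCA2 is the mediator that prepares resected DNA for strand exchange, and XRCC2 is one of the proteins that assist it. BRCA2 was at 7.22 CPM in KO1 and 18.4 CPM in KO2, against 11.9 CPM in NC, and it was 2.55-fold higher in KO2 than in KO1 (interval 2.13 to 3.05). XRCC2 was at 21.4 CPM in KO1 and 47.1 CPM in KO2, against 37.9 CPM in NC, and was 2.20-fold higher in KO2 than in KO1 (interval 1.98 to 2.44). Neither passed the rule against NC in either column, although coding transcripts of XRCC2 alone were at 2.83 CPM in KO1 and 25.7 CPM in KO2, against 23.9 CPM in NC. RAD51AP1, which stimulates strand pairing, sat at the threshold in KO2, with 12.2 CPM in KO1 and 24.3 CPM in KO2, against 12.1 CPM in NC, or 2.01-fold higher in KO2 than in NC (interval 1.76 to 2.30). It no longer passed with DESeq2 size factors, with TPM or with coding transcripts alone.

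Other recombination genes differed by less than 2-fold in CPM between any of the columns. BRCA1 was at 15.8 CPM in KO1 and 19.1 CPM in KO2, against 16.6 CPM in NC. Its deposited TPM was 6.1 in KO1 and 12.7 in KO2, against 11.3 in NC. A same-strand noncoding gene overlaps BRCA1 and held 51.4% of its count, so reads of the pair may have been split by the authors' estimation. PALB2, which joins BRCA1 to BRCA2, had the highest fold of its group in KO1, at 26.2 CPM in KO1 and 20.7 CPM in KO2, against 19.9 CPM in NC, 1.32-fold higher in KO1 than in NC (interval 1.17 to 1.48). XRCC3, which works with RAD51C, had the lowest fold of the group in KO2, at 56.6 CPM in KO1 and 40.5 CPM in KO2, against 64.7 CPM in NC, 1.60-fold lower in KO2 than in NC (interval 1.48 to 1.72). RAD51C and RAD51D passed in no comparison. RAD51C was at 8.26 CPM in KO1 and 13.4 CPM in KO2, against 12.1 CPM in NC, and RAD51D at 18.5 and 20.9 CPM, against 24.5 CPM.

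**Figure D2:**
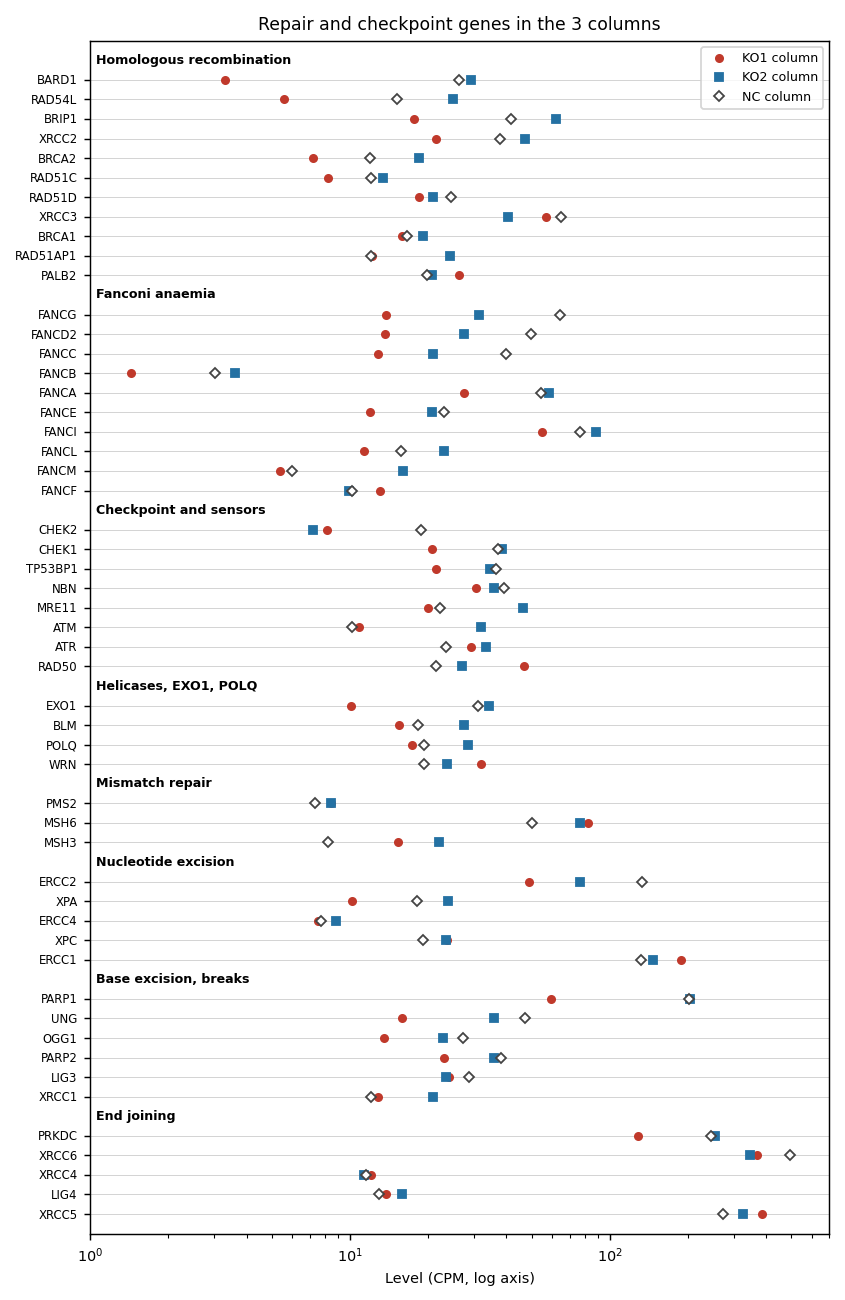
CPM of each of the 52 genes in the KO1, KO2 and NC columns, on a log axis, grouped by role; each point is 1 column and there are no error bars because each group has 1 column. BARD1 in KO1, at 3.30 CPM, is set far from its other points at 29.3 and 26.2 CPM in KO2 and NC.

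The Fanconi anaemia genes had the lowest median of the 8 role groups in KO1. Of 10, 4 passed as lower and 0 as higher in KO1, with a median log2 fold of -0.97, and KO1 was the lowest column for 9. In KO2 1 passed as higher and 1 as lower, with a median of 0.03, and in KO2 over KO1 5 passed as higher, with a median of 1.01. FANCG, a scaffold of the core complex, was at 13.7 CPM in KO1 and 31.3 CPM in KO2, against 64.1 CPM in NC. Both columns labelled as knockouts were below NC, and KO1 was the lower of them. The FANCG level was 4.66-fold lower in KO1 than in NC (interval 4.14 to 5.27), 2.05-fold lower in KO2 than in NC (interval 1.89 to 2.22) and 2.28-fold higher in KO2 than in KO1 (interval 1.9995 to 2.60). FANCG lies on the minus strand of hg38 chromosome 9, from 35073835 to 35080016, and measured genes of that chromosome had median log2 folds of -0.26 in KO1 over NC and -0.23 in KO2 over NC. Relative to those medians FANCG still passed in KO1 but not in KO2, and it did not pass in KO2 on total counts or TPM either. What the chromosome medians contribute was not tested.

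FANCD2 is the protein that the core complex ubiquitinates to start crosslink repair, with FANCI as its partner. FANCD2, whose promoter window is printed above with an E2F match, was at 13.7 CPM in KO1 and 27.5 CPM in KO2, against 49.7 CPM in NC, 3.63-fold lower in KO1 than in NC (interval 3.21 to 4.11). FANCC, a core complex subunit on the same chromosome as FANCG, was at 12.9 CPM in KO1 and 20.8 CPM in KO2, against 39.8 CPM in NC, 3.09-fold lower in KO1 than in NC (interval 2.72 to 3.52). Like FANCG, both genes had KO2 between KO1 and NC, and for both the KO2 level was under 2-fold below NC. FANCI passed in no comparison, with 54.8 CPM in KO1 and 88.4 CPM in KO2, against 76.7 CPM in NC. Its coding transcripts alone were at 3.65 CPM in KO1 and 21.8 CPM in KO2, against 20.8 CPM in NC.

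Among the other core subunits, FANCA was at 27.4 CPM in KO1 and 58.4 CPM in KO2, against 54.3 CPM in NC, and was 2.13-fold higher in KO2 than in KO1 (interval 1.94 to 2.34). Just short of the threshold, its log2 fold in KO1 over NC was -0.98. FANCB, an X-linked subunit and the member with the fewest counts, was at 1.43 CPM in KO1 and 3.61 CPM in KO2, against 3.04 CPM in NC. FANCB was 2.12-fold lower in KO1 than in NC (interval 1.40 to 3.27) and 2.51-fold higher in KO2 than in KO1 (interval 1.68 to 3.85), wide intervals that follow from 33 counts in KO1. FANCL, the ubiquitin ligase subunit, was at 11.3 CPM in KO1 and 23.0 CPM in KO2, against 15.8 CPM in NC, 2.03-fold higher in KO2 than in KO1 (interval 1.76 to 2.35). FANCL did not pass with DESeq2 size factors or relative to its chromosome.

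FANCM, the translocase that recruits the core complex to stalled forks, was close to NC in KO1. It was at 5.39 CPM in KO1 and 15.96 CPM in KO2, against 6.0005 CPM in NC. KO2 alone stood high: FANCM was 2.66-fold higher in KO2 than in NC (interval 2.22 to 3.19) and 2.96-fold higher in KO2 than in KO1 (interval 2.42 to 3.64). FANCF, an intronless adaptor gene, had the highest fold of the group in KO1, at 13.0 CPM in KO1 and 9.93 CPM in KO2, against 10.2 CPM in NC. FANCF was 1.27-fold higher in KO1 than in NC (interval 1.08 to 1.502). FANCE did not pass, at 11.9 CPM in KO1 and 20.7 CPM in KO2, against 23.0 CPM in NC.

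Checkpoint and break-sensing genes included ATM, MRE11 and RAD50, each past the size rule as higher than NC in 1 of the knockout columns. Of 8, 1 passed as higher and 1 as lower in KO1, 2 passed as higher and 1 as lower in KO2, and 2 passed as higher in KO2 than in KO1; the median log2 folds were -0.25, 0.19 and 0.47. ATM was at 10.8 CPM in KO1 and 31.9 CPM in KO2, against 10.2 CPM in NC. KO1 and NC were alike in ATM and KO2 was high, 3.14-fold above NC (interval 2.74 to 3.60) and 2.95-fold above KO1 (interval 2.56 to 3.41). Part of that ATM signal was in a transcript with a retained intron, as described below. ATM lies on the plus strand of hg38 chromosome 11, from 108222484 to 108369102.

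MRE11, the nuclease of the break-sensing complex, was likewise highest in KO2, at 19.998 CPM in KO1 and 46.5 CPM in KO2, against 22.1 CPM in NC. MRE11 was 2.10-fold higher in KO2 than in NC (interval 1.91 to 2.32) and 2.32-fold higher in KO2 than in KO1 (interval 2.09 to 2.59), though with TPM it did not pass against NC. RAD50, the tethering subunit of that complex, was instead high in KO1, at 46.9 CPM in KO1 and 27.1 CPM in KO2, against 21.5 CPM in NC. A same-strand protein-coding gene overlaps RAD50 and held 3 counts in KO1 and 52 in KO2, against 171 in NC. RAD50 itself held 1078, 758 and 602 counts, and reads of the pair may have been split by the authors' estimation. RAD50 was 2.18-fold higher in KO1 than in NC (interval 1.97 to 2.41). It lies on chromosome 5, whose measured genes had median log2 folds of 0.35 in KO1 over NC and 0.30 in KO2 over NC, and relative to these, on total counts or with TPM it did not pass. NBN, the third subunit, passed in no comparison, with 30.5 CPM in KO1 and 36.0 CPM in KO2, against 39.2 CPM in NC.

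CHEK2, the kinase that ATM activates, was at 8.17 CPM in KO1 and 7.18 CPM in KO2, against 18.7 CPM in NC. KO1 and KO2 were both below NC and close to each other: CHEK2 was 2.29-fold lower in KO1 than in NC (interval 1.93 to 2.72), 2.61-fold lower in KO2 than in NC (interval 2.21 to 3.08). The gene is on the minus strand of hg38 chromosome 22, from 28687743 to 28742422, whose measured genes had median log2 folds of -0.38 in KO1 over NC and -0.32 in KO2 over NC; relative to these CHEK2 passed in KO2 only. With coding transcripts alone, at 4.998 CPM in KO2 and 8.54 CPM in NC, CHEK2 did not pass in KO2. Its 7 pseudogene copies held 0 counts in all 3 columns.

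ATR and CHEK1 passed in no comparison. ATR, the kinase of stalled forks, was at 29.1 CPM in KO1 and 33.3 CPM in KO2, against 23.4 CPM in NC. Its target CHEK1 was at 20.7 CPM in KO1 and 38.5 CPM in KO2, against 37.3 CPM in NC, but overlaps STT3A on the same strand, a gene with 396% of its count. TP53BP1, which shields broken ends from resection, was at 21.4 CPM in KO1 and 34.7 CPM in KO2, against 36.3 CPM in NC.

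Of the 4 helicases and end-processing enzymes, EXO1 alone passed. EXO1, the exonuclease of long-range resection and mismatch repair, was at 10.1 CPM in KO1 and 34.1 CPM in KO2, against 31.0 CPM in NC. It was 3.06-fold lower in KO1 than in NC (interval 2.65 to 3.55) and 3.37-fold higher in KO2 than in KO1 (interval 2.92 to 3.91), and its fold in KO2 over NC, 1.10 (interval 1.003 to 1.21), was the lowest of the 4. With TPM centred on the median of all genes EXO1 did not pass in KO1 over NC. WRN, the Werner syndrome helicase, had the highest fold in KO1, at 32.0 CPM in KO1 and 23.6 CPM in KO2, against 19.3 CPM in NC, 1.66-fold higher in KO1 than in NC (interval 1.48 to 1.85). BLM, the Bloom syndrome helicase, had the highest fold in KO2, at 15.4 CPM in KO1 and 27.5 CPM in KO2, against 18.3 CPM in NC, 1.51-fold higher in KO2 than in NC (interval 1.34 to 1.69). POLQ, the polymerase of microhomology-mediated joining, was at 17.3 CPM in KO1 and 28.5 CPM in KO2, against 19.3 CPM in NC. The group's median log2 folds were -0.20 in KO1 over NC, 0.42 in KO2 over NC and 0.77 in KO2 over KO1.

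Mismatch repair genes ran the other way from the recombination genes in KO1, with a median log2 fold of 0.72 in KO1 over NC and 0.62 in KO2 over NC over 3 genes. MSH3, which recognises larger loops, was at 15.3 CPM in KO1 and 21.9 CPM in KO2, against 8.21 CPM in NC. Both knockout columns were above NC, 1.87-fold in KO1 (interval 1.58 to 2.22) and 2.67-fold in KO2 (interval 2.29 to 3.12), of which KO2 passed. MSH6, its counterpart for single mismatches, was at 82.7 CPM in KO1 and 77.1 CPM in KO2, against 50.2 CPM in NC, short of the rule in both. PMS2, the endonuclease subunit, had the lowest fold of the 3 in both comparisons, at 8.48 CPM in KO1 and 8.43 CPM in KO2, against 7.32 CPM in NC, 1.16-fold above NC in KO1 (interval 0.947 to 1.42) and 1.15-fold above NC in KO2 (interval 0.950 to 1.39). PMS2 shares sequence with 15 copies that held 1223 counts in KO1, 839 in KO2 and 698 in NC, against 195, 236 and 205 counts for PMS2 itself, so its level is uncertain.

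Of 5 nucleotide excision repair genes, 1 passed as lower in KO1, 0 passed in KO2 against NC, and 1 passed as higher in KO2 than in KO1; the median log2 folds were -0.03, 0.20 and 0.23. ERCC2, a helicase of the transcription factor TFIIH, was at 48.7 CPM in KO1 and 76.5 CPM in KO2, against 133 CPM in NC. KO2 lay between, and ERCC2 was 2.74-fold lower in KO1 than in NC (interval 2.56 to 2.93) and 1.74-fold lower in KO2 than in NC (interval 1.65 to 1.84). XPA, which verifies the lesion, was at 10.2 CPM in KO1 and 23.8 CPM in KO2, against 18.1 CPM in NC, 2.34-fold higher in KO2 than in KO1 (interval 2.02 to 2.73) and 1.31-fold higher in KO2 than in NC (interval 1.17 to 1.48). ERCC1, a subunit of the nuclease that cuts beside the lesion, had the highest fold in KO1, at 188 CPM in KO1 and 147 CPM in KO2, against 132 CPM in NC, 1.42-fold above NC in KO1 (interval 1.36 to 1.49). The damage sensor XPC and the nuclease partner ERCC4 passed in no comparison, XPC at 23.6 CPM in KO1 and 23.4 CPM in KO2, against 19.1 CPM in NC, and ERCC4 at 7.56 and 8.85 CPM, against 7.71 CPM.

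Base excision and strand-break repair genes included 3 of the 13 that were lower in KO1; of 6, 0 passed as higher there, and the median log2 folds were -0.87 in KO1 over NC, -0.18 in KO2 over NC and 0.73 in KO2 over KO1. PARP1, the sensor that marks strand breaks with poly(ADP-ribose), was at 59.3 CPM in KO1 and 203 CPM in KO2, against 202 CPM in NC. KO2 and NC were level for PARP1, while KO1 was 3.40-fold lower than NC (interval 3.20 to 3.61) and KO2 was 3.43-fold higher than KO1 (interval 3.23 to 3.64). PARP1 lies on the minus strand of hg38 chromosome 1, from 226360691 to 226408079.

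UNG and OGG1 are the glycosylases that remove uracil and oxidised guanine. UNG was at 15.9 CPM in KO1 and 35.8 CPM in KO2, against 47.2 CPM in NC, 2.98-fold lower in KO1 than in NC (interval 2.65 to 3.35), 1.32-fold lower in KO2 than in NC (interval 1.21 to 1.43) and 2.25-fold higher in KO2 than in KO1 (interval 1.998 to 2.55). OGG1 was at 13.5 CPM in KO1 and 22.7 CPM in KO2, against 27.3 CPM in NC, 2.02-fold lower in KO1 than in NC (interval 1.77 to 2.32). OGG1 is the member just inside the threshold in KO1, with a log2 fold of -1.01. XRCC1, the scaffold that PARP1 recruits, had the highest fold of the group in both comparisons, at 12.8 CPM in KO1 and 20.9 CPM in KO2, against 12.04 CPM in NC, 1.07-fold above NC in KO1 (interval 0.908 to 1.25) and 1.74-fold above NC in KO2 (interval 1.52 to 1.99). PARP2 and LIG3, a related enzyme and the ligase partner of XRCC1, passed in no comparison. PARP2 was at 22.9 CPM in KO1 and 35.8 CPM in KO2, against 38.0 CPM in NC, and LIG3 at 24.0 and 23.4 CPM, against 28.8 CPM.

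On CPM, end joining was the group with no gene past the rule in any of the 3 comparisons. Its median log2 folds were 0.07 in KO1 over NC, 0.05 in KO2 over NC and -0.08 in KO2 over KO1. It also holds the most abundant members. XRCC6 and XRCC5 encode Ku70 and Ku80, the ring that threads onto a broken end. XRCC6 was at 367 CPM in KO1 and 346 CPM in KO2, against 493 CPM in NC, and was 1.34-fold lower in KO1 than in NC (interval 1.31 to 1.38) and 1.42-fold lower in KO2 than in NC (interval 1.39 to 1.46). XRCC5 was at 387 CPM in KO1 and 325 CPM in KO2, against 272 CPM in NC, 1.42-fold above NC in KO1 (interval 1.38 to 1.47). The subunits of the Ku ring therefore lay on opposite sides of NC, XRCC6 below and XRCC5 above, in both knockout columns. XRCC6 had log2 folds of -0.43 in KO1 over NC and -0.51 in KO2 over NC. It lies on chromosome 22, whose measured genes had medians of -0.38 and -0.32. For XRCC5 the log2 folds were 0.51 and 0.26, beside chromosome 2 medians of 0.08 and 0.09. What the chromosome medians contribute to these levels was not tested.

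PRKDC, the kinase that Ku recruits, was at 129 CPM in KO1 and 254 CPM in KO2, against 246 CPM in NC, just short of the threshold in KO1. The deposited TPM differed for PRKDC, at 16.6 in KO1 and 35.5 in KO2, against 72.7 in NC. On that scale both knockout columns lay below NC, so its level in KO2 relative to NC depends on the unit. LIG4, the ligase of the final step, was at 13.8 CPM in KO1 and 15.9 CPM in KO2, against 12.9 CPM in NC, 1.23-fold above NC in KO2 (interval 1.07 to 1.42). XRCC4, its partner, was at 12.1 CPM in KO1 and 11.3 CPM in KO2, against 11.5 CPM in NC. Compared per length, in the deposited TPM, the most abundant members were XRCC6 at 209 in KO1, 250 in KO2 and 358 in NC, XRCC5 at 144, 176 and 140, and ERCC1 at 121, 128 and 120. On the same TPM scale FANCB was the lowest member in KO1, at 0.9, with 4.34 in KO2 and 2.63 in NC.

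Other genes of the same pathways were set beside the members. Of 95 measured genes on that list, 6 passed as higher and 20 as lower in KO1, 4 as higher and 5 as lower in KO2, and 15 as higher and 4 as lower in KO2 over KO1, and their median log2 folds were -0.18, -0.18 and 0.15. edgeR called 0 of them, with 3 at an unadjusted p under 0.05. The lowest in KO1 were NTHL1, a glycosylase of oxidised pyrimidines, at 1.17 CPM in KO1 and 5.53 CPM in KO2, against 9.57 CPM in NC; NEIL2, a related glycosylase, at 1.17 CPM in KO1 and 4.71 CPM in KO2, against 7.07 CPM in NC; and LIG1, the replicative ligase, at 13.8 CPM in KO1 and 82.6 CPM in KO2, against 77.6 CPM in NC. LIG1 had the KO1-only pattern of BARD1 and PARP1. The highest in KO1 were GTF2H2 at 33.6 CPM in KO1 and 19.5 CPM in KO2, against 12.5 CPM in NC, MUTYH at 32.1 and 13.6 CPM, against 12.001 CPM, and ERCC5 at 31.1 and 26.3 CPM, against 12.3 CPM. GTF2H2 encodes a TFIIH subunit with near-identical copies, and ERCC5 the nuclease XPG.

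In KO2 the lowest of that list was ATRIP, the partner of ATR, at 2.22 CPM in KO1 and 1.25 CPM in KO2, against 7.36 CPM in NC. SHLD1, a shieldin subunit that limits resection, was at 4.09 CPM in KO1 and 0.607 CPM in KO2, against 3.0002 CPM in NC, and ALKBH2, a demethylase of alkylated bases, at 10.8 and 4.78 CPM, against 12.3 CPM. The highest in KO2 were RECQL, a RecQ helicase, at 24.5 CPM in KO1 and 49.8 CPM in KO2, against 19.9 CPM in NC, FIGNL1 at 19.998 and 32.2 CPM, against 14.2 CPM, and CLSPN at 3.74 and 41.0 CPM, against 18.4 CPM. CLSPN, the claspin adaptor through which ATR activates CHEK1, was thus low in KO1 and high in KO2.

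Replication and G1 to S genes were mostly lower in KO1. Of 44, 32 passed as lower and 0 as higher in KO1, with a median log2 fold of -1.45, and 0 passed as lower and 1 as higher in KO2, with a median of -0.27. Between the knockout columns, 23 passed as higher in KO2 than in KO1, and KO1 was the lowest column for 38. E2F2, an S phase activator, was at 0.739 CPM in KO1 and 8.39 CPM in KO2, against 15.7 CPM in NC, and CCNE2, a G1 to S cyclin, at 1.09 and 18.0 CPM, against 12.6 CPM. The third of the lowest was UHRF1, which guides maintenance methylation, at 17.2 CPM in KO1 and 160 CPM in KO2, against 184 CPM in NC. In KO2 the gene that passed was POLA1, the catalytic subunit of the priming polymerase, at 22.7 CPM in KO1 and 65.3 CPM in KO2, against 27 CPM in NC. Of 40 G2 to M genes, 6 passed as lower and 0 as higher in KO1, with a median of -0.01, and MKI67, the proliferation marker, was at 82.5 CPM in KO1 and 267 CPM in KO2, against 291 CPM in NC. The mitotic kinase AURKA at 85.4 CPM in KO1 and 200 CPM in KO2, against 254 CPM in NC and the survivin gene BIRC5 at 16.3 CPM in KO1 and 30.2 CPM in KO2, against 40.7 CPM in NC were the next lowest in KO1. In KO2 3 of the 40 passed as higher: ANLN at 234 CPM in KO1 and 502 CPM in KO2, against 210 CPM in NC, ECT2 at 98.2 CPM in KO1 and 190 CPM in KO2, against 85.2 CPM in NC, and CENPE at 47.4 CPM in KO1 and 74.5 CPM in KO2, against 36.2 CPM in NC. The first 2 act in cytokinesis and CENPE is a kinesin of the kinetochore. The replication genes and the members thus both had a median below 0 in KO1 over NC and above 0 in KO2 over KO1, while in KO2 over NC their medians were -0.27 and 0.18. The part of the replication genes' level in the members' differences was not tested. Fewer replicating cells and less RNA of these genes per cell cannot be told apart in bulk RNA.

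**Figure D3:**
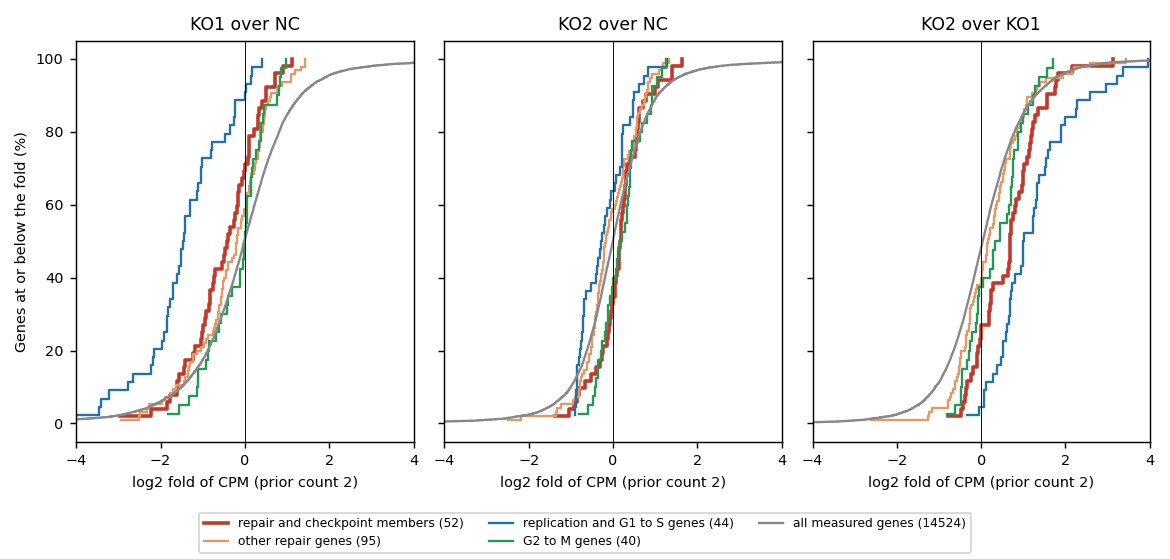
Cumulative share of genes (%) against log2 fold of CPM (prior count 2) in KO1 over NC, KO2 over NC and KO2 over KO1, for the 52 members, 95 other repair genes, 44 replication genes, 40 G2 to M genes and all 14524 measured genes. In KO1 over NC the members' median is -0.42, beside -0.01 for all genes and -1.45 for the replication genes.

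The table gives values per transcript, and within genes the transcripts did not always keep their shares. The members have 598 transcripts, of which 66, in 32 members, held at least 20% of their gene's count in some column with a share that differed by at least 20 percentage points between columns. The same transcript led in all 3 columns for 32 of the 52 genes. How many of all genes meet these rules is not given here, so the counts are not shown to be particular to the members. The transcript shares are the authors' estimates from short fragments, with no replicate, and similar transcripts can trade counts between them. PALB2 had different leading transcripts in the knockout columns and the control: the transcript PALB2-201 held 88.9% of its count in KO1 and 90.5% in KO2, whereas PALB2-206 held 92.6% in NC. NBN likewise had NBN-201 at 96.3% in KO1 and 95.1% in KO2, and NBN-203 at 94.9% in NC. XRCC4 and BARD1 differed between the knockout columns instead. XRCC4-205 held 80.6% of XRCC4 in KO1, while XRCC4-202 held 92.4% in KO2 and 92.0% in NC, and a shorter coding transcript of 3967 bases held 65.5% of BARD1 in KO2, while BARD1-201 held 97.4% in KO1 and 94.1% in NC.

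Transcripts annotated as protein-coding took 90.4% of the members' counts in KO1 and 87.3% in KO2, against 87.2% in NC. Over all nuclear genes they took 81.0% and 82.4%, against 83.8%. Retained-intron transcripts took 6.07% of the members' counts in KO1 and 8.92% in KO2, against 9.12% in NC. Over all nuclear genes they took 8.43% and 8.39%, against 7.72%. These are shares of summed counts, so the most abundant members weigh most. For 13 members, a count not given here for all genes, the coding share spanned at least 20 percentage points. In ATM it was 79.9% in KO1 and 54.9% in KO2, against 89.8% in NC, since the retained-intron transcript ATM-221 held 38.3% of the KO2 count. ATM coding transcripts alone were at 17.5 CPM in KO2, against 9.14 CPM in NC, so the gene did not pass on that basis. WRN had a coding share of 98.1% in KO1 and 34.1% in KO2, against 91.3% in NC. Both of these had their lowest coding share in KO2.

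In KO1 other genes had low coding shares. FANCI coding transcripts took 6.67% of its count in KO1 and 24.7% in KO2, against 27.2% in NC. For FANCD2 the coding share was 34.6% in KO1 and 86.9% in KO2, against 65.6% in NC, and for BLM it was 34.6% in KO1 and 81.8% in KO2, against 67.6% in NC. XRCC2 had 13.2% in KO1 and 54.5% in KO2, against 63.0% in NC. Coding transcripts alone gave 18 members lower and 1 higher in KO1 over NC, beside 21.9% and 14.9% of all genes, 2 lower and 3 higher in KO2 over NC, beside 11.8% each, and 22 higher and 1 lower in KO2 over KO1, beside 19.1% and 11.3%, with all-gene medians of -0.11 in KO1 over NC and 0.11 in KO2 over KO1.

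**Figure D4:**
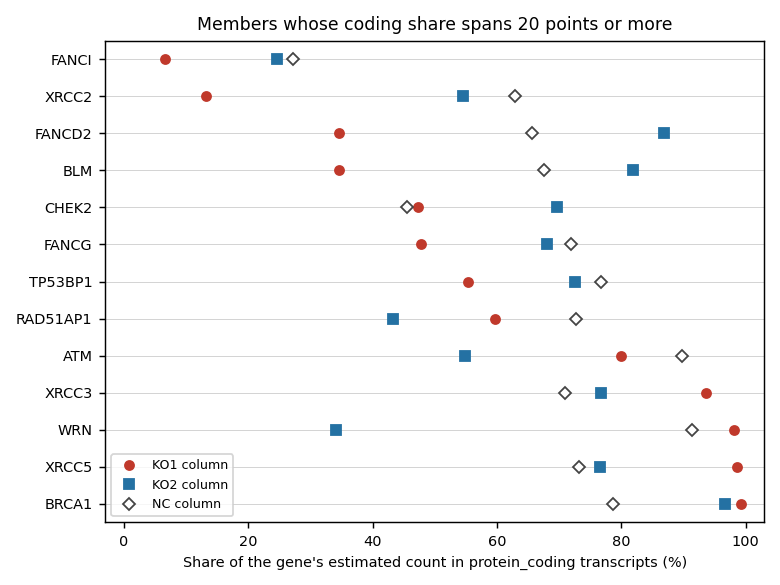
Share (%) of each gene's estimated count in transcripts annotated as protein-coding, in the KO1, KO2 and NC columns, for the 13 members in which it spanned at least 20 percentage points. FANCI, XRCC2, FANCD2 and BLM are lowest in KO1, and WRN and ATM are lowest in KO2.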

How the data were processed

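RNA of MDA-MB-231 cells was sequenced after Trizol extraction with a stranded total RNA kit, per the labels' protocols. Per the file headers, the authors deposited estimated counts and TPM for 199167 transcripts in 1 column per group; that the counts are estimated is read from values given per transcript. The tools and build were CASAVA, Bowtie2, featureCounts and hg38, per the submitters' processing notes, which give no versions and no roles. Whether a column is 1 library or both samples combined is not stated, so nothing here measures the spread between replicates of a group. Of the other columns, 3 held FPKM of the same groups and were not used. The deposited TPM served for levels per length and as an alternative.

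Transcript counts were summed per gene ID, of which 57392 had a current symbol, and scaled to CPM with TMM (edgeR 4.0.16, R 4.3.3). Whether the counting used strand is not stated, so reads of a gene and an antisense partner cannot be told apart. On the same strand 9 members overlap another gene with counts, 2 of them by at least 10% of their count. Transcript names and types come from GENCODE release 29, whose positions match for 196287 transcripts. A gene was measured at a mean of at least 1 CPM, and the size rule asked for a log2 fold (prior count 2) of at least 1 in size and an exact 95% Clopper-Pearson interval, conditional on the summed count, that excludes equality. It gives no p-value. Reads carried no stated molecular identifiers, so an interval covers counting error only and treats each read as its own molecule. The edgeR quasi-likelihood F test (robust, filterByExpr, Benjamini-Hochberg) compared KO1 and KO2 together with NC, and DESeq2 1.42.0 was the alternative. The edgeR test and the size rule were tested on simulated data. For the edgeR test, the simulated KO1 and KO2 columns carried the same changes. In the deposited columns 26.1% of measured genes passed the size rule between KO2 and KO1. That simulation therefore cannot show how the edgeR test behaves on these columns. The p-values rest on how far 2 columns lie apart and say nothing of separate cultures.

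Members and lists were chosen with earlier results of these data known. Full values are given for members past the rule in both knockout columns or between them and for the highest and lowest member of each role group, and, on the other lists, for up to 3 highest and lowest past the rule. RefSeq promoter windows of 47 members were used; those of WRN, PRKDC, NBN, XRCC5 and FANCI were not analysed here. Other scalings, filters, thresholds and transcript sets were tried. Some genes and 1 gene list are not reported here.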

Additional observations from a re-analysis of the deposited data

Results flagged for a closer look

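For 12 genes KO1 lay below NC and KO2 above it in TMM-scaled CPM, with both intervals excluding equality. On that scale the columns with the same genotype label differed from the control in opposite directions. With 1 column per group the difference was not tested. The flag did not ask for a 2-fold difference, and the share of all measured genes that meet it is not given here. By the size rule 0 members passed in opposite directions, as 117 of the 14524 measured genes did. The log2 fold of KO2 over KO1 was 3.12 for BARD1, where the folds over NC were -2.96 in KO1 and 0.16 in KO2. In RAD54L it was 2.15, with -1.43 in KO1 and 0.72 in KO2 over NC, and in BRIP1 1.82, with -1.24 and 0.58. EXO1 had 1.74, with -1.61 in KO1 and 0.14 in KO2 over NC. For BRCA2 the log2 fold of KO2 over KO1 was 1.34, for XPA 1.22, for XRCC2 1.13, for FANCA 1.09 and for FANCL 1.02, and in these 5 genes neither fold over NC passed the size rule. PRKDC at 0.98, BLM at 0.83 and FANCI at 0.69 did not pass the rule between KO2 and KO1 either. The folds of KO2 over NC of BARD1, EXO1, FANCA and PRKDC were close to equality, at 0.16, 0.14, 0.11 and 0.05 on the log2 scale. Their intervals began at 1.003 for EXO1, 1.003 for FANCA and 1.001 for PRKDC, so a small change of scaling could remove these flags. In the deposited TPM PRKDC was at 35.5 in KO2, against 72.7 in NC, so KO2 lay below NC there.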

How the results depend on the processing

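No member past the size rule changed direction under any alternative that was run, and 22 of 37 called values passed under every one of them. On total counts the members counted as higher in KO1 over NC were 0, lower 19 and the median -0.65. In KO2 over NC 1 was lower on total counts (all genes 9.38%), and the KO2 over KO1 median was 0.96. All-gene medians there were -0.24 in KO1 over NC and 0.30 in KO2 over KO1, with 11.3% of genes higher and 22.7% lower in KO1 over NC, beside 15.4% and 17.4% with TMM. Summed TPM (pseudocount 0.1, no interval) gave 0 higher and 20 lower with a median of -0.78 in KO1 over NC (all genes 9.31% and 26.6%), 3 higher in KO2 over NC (all genes 11.9%), and 28 higher with a median of 1.04 in KO2 over KO1 (all genes 26.4%), beside all-gene medians of -0.39 and 0.46 in KO1 over NC and KO2 over KO1. Centred on each chromosome's median, KO1 over NC had 0 higher and 14 lower (all genes 14.9% and 17%) and a median of -0.28. In that setting KO2 over NC had 5 higher and 1 lower (all genes 10.4% and 9.71%), and KO2 over KO1 15 higher and 0 lower (all genes 13.9% and 12%). At a fold of 1.5, 4 were higher and 22 lower in KO1 over NC (all genes 26.3% and 28%), 10 higher and 6 lower in KO2 over NC (all genes 22.1% and 21%), and 31 higher and 1 lower in KO2 over KO1 (all genes 26% and 21.9%).

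Chosen after seeing the data, coding transcripts alone gave a KO1 over NC median of -0.56, 3 higher in KO2 over NC and 1 lower in KO2 over KO1. TPM centred on all genes, also chosen after seeing the data, gave 2 higher and 15 lower in KO1 over NC (all genes 15.6% and 16.7%). In KO2 over NC it gave 3 higher and 3 lower (all genes 10.9% and 9.83%). In KO2 over KO1 it gave 14 higher and 1 lower (all genes 14% and 12%), with a median of 0.58. With centred TPM EXO1 no longer passed in KO1 over NC, nor FANCA, FANCL, FANCM, MRE11 and ATM in KO2 over KO1. The cause of these shifts was not tested. Over all genes edgeR called 27, against 293 by DESeq2, 14 with DESeq2 size factors, 493 without a filter, 15 without mitochondrial genes and, added later, 48 without robust dispersion. Each of these fits called 0 of the 52 members. No paired analysis was possible because each group has 1 column, which carries no replicate number, and leaving out a column was not run because it leaves no residual degree of freedom.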
